A study of Saccharomyces cerevisiae with 8 samples.

Results

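The glutathione and thioredoxin systems were followed through GSH1, GSH2, GLR1, GTT1, GTT2, ECM4, GRX1, GRX2, TRX2 and TRR1. These 10 yeast genes were chosen by name, with earlier results of these data known. They were found by locus tag among the 6212 IDs of the deposited table, of which 5519 held a value on at least 1 array. All 10 had at least 1 value, and 8 had a value on all 8 arrays. GTT2 (YLL060C) was read on 1 array only, too few for the tests given here, and ECM4 (YKR076W) lacked a value on 1 array.

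The study measured how Saccharomyces cerevisiae responds to excess zinc, with and without the DNA helicase Pif1. The mutant, pif1::KanMX, carried a drug-resistance cassette at PIF1 in the laboratory strain BY4741, and the wild type was BY4741 itself. Zinc-treated cells received 5 mM zinc chloride for 1 h in rich medium (YPD) at 28 °C, after growth to an A660 of 0.6. The 4 comparisons were zinc-treated over untreated pif1 cells, zinc-treated over untreated wild type, pif1 over wild type with zinc, and pif1 over wild type without zinc, each on 2 spotted 2-colour arrays with exchanged dyes. Untreated cells of the zinc comparisons grew for 1 h more without zinc, whereas for the untreated pif1 and wild-type cells set against each other the labels give harvest at the stated density and no added hour. The labels do not say whether the array numbers 1 and 2 stand for separate cultures, nor whether the mutant was a single clone, so the p-values measure only the spread between these arrays, which may be technical.

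Glutathione is a small thiol peptide that buffers the redox state of the cytosol, binds metals and conjugates toxic compounds. It is made by a pair of ligases, used by transferases and glutaredoxins, and returned to its reduced form by glutathione reductase with NADPH. Thioredoxin is a small protein that reduces disulphides in peroxidases, methionine sulphoxide reductases and ribonucleotide reductase, and is itself reduced by thioredoxin reductase, again with NADPH. In yeast many genes of both systems are targets of the oxidative stress regulators Yap1 and Skn7.

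Every value is a log2 ratio between the RNAs of 1 array, read with the RNA named first on top, after the median of that array was set to 0. It compares RNAs for 1 spot and says nothing about which of 2 genes is more abundant. Each array gave between 4556 and 5119 values. The arrays of a pair correlated across genes with r = 0.573 for zinc in pif1, 0.868 for zinc in wild type, 0.439 for pif1 over wild type with zinc and 0.586 without. PIF1 itself checked the mutant label: its deposited value was −3.72 and −4.90 on the second array of the comparison with and without zinc, and on both first arrays it was a placeholder beyond 16 in size. The genes raised by zinc were set against the zinc label of the mutant arrays. For 51 genes that zinc raised 4-fold or more in wild type, the pif1-over-wild-type arrays labelled with zinc held values for 64.7% and 80.4% of them, against 98.0% and 100% on those labelled without, while among all genes tested in wild type the share lay between 92.8% and 97.1%. The arrays labelled with zinc thus lacked values for more of these genes, the cause was not tested, and the zinc state of the mutant arrays is given as labelled.

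**Figure D1:**
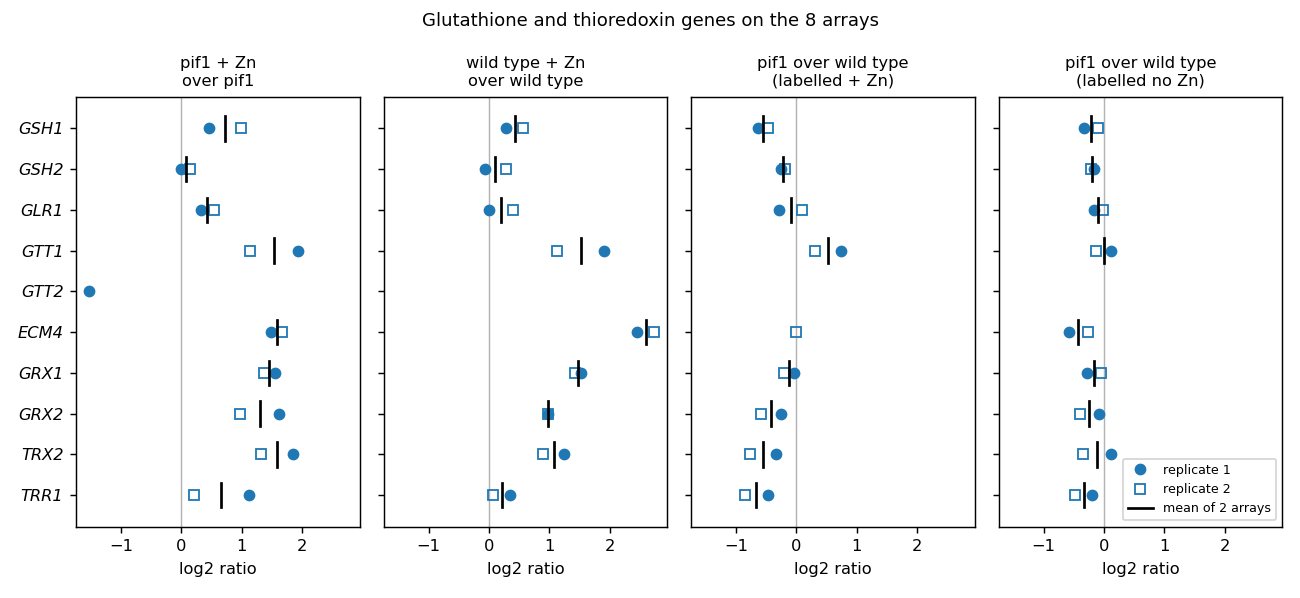
Centred log2 ratio (horizontal axis) of each gene on each array, in 1 panel per comparison; points are single arrays. On the zinc arrays 17 of 19 values in pif1 and 17 of 18 in wild type lie above 0, and on the pif1-over-wild-type arrays 14 of 17 labelled with zinc and 16 of 18 labelled without lie below it.

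After zinc 5 genes of the 9 tested rose in both strains and 2 more rose in pif1. In pif1 cells 7 of the 9 genes tested rose (limma, Benjamini-Hochberg adjusted p under 0.05), at a background of 15.5% of the 4272 genes tested called higher, and their median log2 ratio was 1.30, against 0.01 over all genes. In wild type 5 of 9 rose, at a background of 14.7% of 4635 genes, with a median of 0.98 against −0.00 over all genes. None fell in either strain, against 15.8% of all genes called lower in pif1 and 15.6% in wild type. At an unadjusted p under 0.05 none of them was lower either, against 21.0% and 22.1% of all genes. The genes were chosen with earlier results of these data known and were not tested as a set. The transferases GTT1 and ECM4, both glutaredoxins and TRX2 made up the genes that rose in both strains, while the glutathione ligases, glutathione reductase and thioredoxin reductase stood lower in the order.

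Among the genes of glutathione synthesis and recycling, GSH1 (YJL101C) encodes gamma-glutamylcysteine synthetase, the rate-limiting enzyme of the pathway. Its log2 ratio with zinc was 0.46 and 0.99 on the arrays of pif1 and 0.29 and 0.56 on those of wild type. All 4 values were above 0, and the ranges of the strains overlapped. The mean rose in pif1 by 0.73 ± 0.37 (SD, 2 arrays, 1.66-fold, limma adjusted p = 0.0106), a call that ended without the second array of that pair (adjusted p = 0.0729), with quantile normalization (0.0727) and with arrays scaled to 1 spread (0.0960). In wild type it was 0.43 ± 0.19 and did not pass (adjusted p = 0.0805).

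GSH2 (YOL049W), glutathione synthetase, which adds glycine in the last step, stayed near 0. It gave −0.00 and 0.15 in pif1 and −0.07 and 0.28 in wild type, with 1 array of each strain below 0. The means were 0.07 ± 0.11 and 0.11 ± 0.24 (limma adjusted p = 0.721 and 0.602). The 95% intervals ran from −0.24 to 0.38 in pif1 and from −0.20 to 0.42 in wild type, and both included 0.

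GLR1 (YPL091W), glutathione reductase, had values of 0.32 and 0.53 in pif1 and 0.00 and 0.40 in wild type. All were at or above 0 and the strains overlapped. Neither mean passed, at 0.43 ± 0.15 in pif1 (limma adjusted p = 0.0700) and 0.20 ± 0.28 in wild type (adjusted p = 0.382).

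The glutathione transferases ECM4 and GTT1 rose in both strains. ECM4 (YKR076W), an omega-class glutathione transferase also known as GTO2, read 1.49 and 1.67 in pif1 and 2.46 and 2.74 in wild type. Both wild-type arrays lay above both pif1 arrays, and the arrays of a strain lay close together. The mean rise was 1.58 ± 0.13 in pif1 (2.99-fold, limma adjusted p = 0.000336, 49th highest of 4272 genes) and 2.60 ± 0.20 in wild type (6.07-fold, adjusted p = 2.64e-05, 30th highest of 4635).

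GTT1 (YIR038C), a membrane-associated glutathione transferase of the endoplasmic reticulum, read 1.93 and 1.13 in pif1 and 1.91 and 1.13 in wild type. The strains overlapped almost fully, and the first array was the higher one in each. The mean rise was 1.53 ± 0.56 in pif1 (2.89-fold, limma adjusted p = 0.00194) and 1.52 ± 0.55 in wild type (2.87-fold, adjusted p = 0.00217), and the wild-type call ended without its first array (adjusted p = 0.0602). GTT2, a cytosolic transferase, had its single value on the first array of zinc in pif1, where it was −1.53. No other array gave it a value, so its response has no replicate.

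Both dithiol glutaredoxins rose in both strains. GRX1 (YCL035C), which uses reduced glutathione to clear protein disulphides, read 1.55 and 1.37 in pif1 and 1.52 and 1.44 in wild type. These 4 values lay within a narrow range and overlapped between strains. The rise was 1.46 ± 0.13 in pif1 (2.75-fold, limma adjusted p = 0.000185) and 1.48 ± 0.06 in wild type (2.79-fold, adjusted p = 0.000131).

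GRX2 (YDR513W), its close relative, which is found in the cytosol and mitochondria, read 1.62 and 0.98 in pif1 and 0.98 and 0.98 in wild type. The second pif1 array matched the wild-type values to 2 decimals, and the first was higher. The rise was 1.30 ± 0.45 in pif1 (2.46-fold, limma adjusted p = 0.00112) and 0.98 ± 0.00 in wild type (1.97-fold, adjusted p = 0.00443). Without either array the wild-type call was lost (adjusted p = 0.0675 and 0.0654).

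Of the cytosolic thioredoxin and its reductase, TRX2 rose in both strains. TRX2 (YGR209C), the cytosolic thioredoxin whose gene is a classic Yap1 target, read 1.85 and 1.31 in pif1 and 1.25 and 0.90 in wild type. Both pif1 arrays lay above both wild-type arrays, by a margin smaller than the distance between the arrays of either strain. TRX2 rose by 1.58 ± 0.38 in pif1 (2.99-fold, limma adjusted p = 0.000627, 48th highest of 4272) and by 1.08 ± 0.25 in wild type (2.11-fold, adjusted p = 0.00402, 192nd highest of 4635). The wild-type call was lost without its first array (adjusted p = 0.0872) and with quantile-normalized arrays (adjusted p = 0.0570).

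TRR1 (YDR353W), the cytosolic thioredoxin reductase that recharges TRX2's product, read 1.12 and 0.21 in pif1 and 0.35 and 0.07 in wild type. The first pif1 array stood apart and the other 3 values lay close together. The pif1 mean of 0.67 ± 0.65 passed narrowly (1.59-fold, limma adjusted p = 0.0461), and the call rested on that array (adjusted p = 0.447 without it). It also ended with a dye term (adjusted p = 0.0557), with zinc arrays fitted alone (0.0849), with quantile normalization (0.190) and with arrays scaled to 1 spread (0.207). In wild type the mean was 0.21 ± 0.20 (adjusted p = 0.509).

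TRX1, the second cytosolic thioredoxin and the paralog of TRX2, offered a comparison within the family. It read 1.25 and 0.03 in pif1 and 0.37 and −0.17 in wild type, with means of 0.64 ± 0.86 and 0.10 ± 0.38 (limma adjusted p = 0.0987 and 0.810). TRX1 did not pass in either strain, and the difference between the paralogs was not tested. Cross-hybridisation of related sequences (TRX1 with TRX2, GRX1 with GRX2) was not tested.

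**Figure D2:**
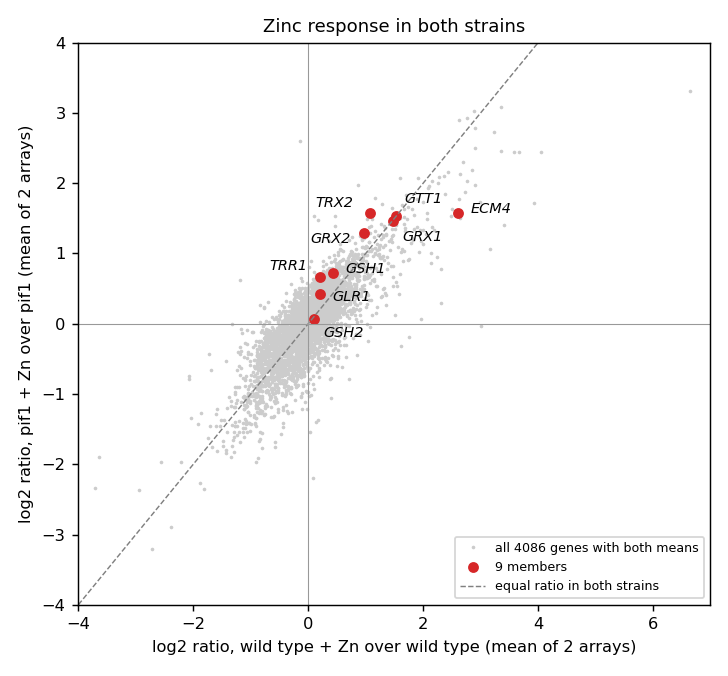
Zinc response in pif1 (vertical axis) against that in wild type (horizontal axis) as mean log2 ratio of 2 arrays, for all 4086 genes with both values (grey) and the 9 genes tested here (named); the diagonal marks equal responses. ECM4, at 1.58 in pif1 and 2.60 in wild type, lies farthest below the diagonal of the named genes, and TRX2, at 1.58 and 1.08, is the one farthest above it.

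The direct ratio of pif1 over wild type gave small values, most of them below 0. On the arrays labelled with zinc 0 of 8 genes tested passed in either direction, at a background of 0.988% of 4657 genes higher and 0.193% lower, and 4 were lower at an unadjusted p under 0.05, where 2.64% of all genes were. Of these 8 genes 7 lay below 0, as did 52.5% of all genes, and their median was −0.32, against −0.01 over all genes. On the arrays labelled without zinc 0 of 9 passed, at a background of 1.44% of 4722 genes higher and 0.593% lower, and 1 was lower at an unadjusted p under 0.05, where 5.48% of all genes were. All 9 lay below 0, as did 50.9% of all genes, with a median of −0.19 against −0.00. The design names 4 kinds of RNA by strain and zinc, but the labels give the added hour only to untreated cells of the zinc comparisons. They do not say which preparations were shared. The values of the 4 comparisons are therefore given side by side and not as separate evidence.

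The lowest ratios with zinc were those of TRR1, GSH1 and TRX2. TRR1 read −0.47 and −0.86 on the arrays labelled with zinc and −0.19 and −0.48 on those labelled without. All 4 values were below 0 and the ranges overlapped at their edge. The means of −0.67 ± 0.27 and −0.34 ± 0.20 did not pass (limma adjusted p = 0.262 and 0.556), although the first was the 21st lowest of 4657 genes.

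GSH1 read −0.64 and −0.48 with zinc and −0.33 and −0.10 without. All 4 values lay below 0, and both arrays labelled with zinc lay below both labelled without. The means were −0.56 ± 0.11 (limma adjusted p = 0.204, 36th lowest of 4657) and −0.22 ± 0.16 (adjusted p = 0.629). TRX2 read −0.34 and −0.77 with zinc and 0.11 and −0.35 without, so that the ranges overlapped slightly and the second array was the lower one in each. Its means were −0.55 ± 0.30 (adjusted p = 0.311, 39th lowest) and −0.12 ± 0.33 (adjusted p = 0.862). These 3 genes passed with zinc once arrays were scaled to 1 spread (adjusted p = 0.0103 for GSH1, 0.0139 for TRR1 and 0.0357 for TRX2) or with quantile normalization (0.00971, 0.0204 and 0.0414).

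The glutaredoxins, GLR1 and GSH2 gave ratios nearer 0, and none passed. GRX2 read −0.25 and −0.58 with zinc and −0.09 and −0.40 without, and averaged −0.42 ± 0.23 and −0.24 ± 0.22 (limma adjusted p = 0.495 and 0.619). GRX1 averaged −0.12 ± 0.12 and −0.17 ± 0.17 (adjusted p = 0.960 and 0.652). Every value of GRX1 and GRX2 was below 0, and for both genes the ranges with and without zinc overlapped. GLR1 averaged −0.10 ± 0.28 and −0.09 ± 0.10 (adjusted p = 1 and 0.867), and GSH2 −0.22 ± 0.04 and −0.19 ± 0.04 (adjusted p = 0.779 and 0.597).

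The transferases GTT1 and ECM4 did not pass either. GTT1 was the only gene of the 8 tested with a mean above 0 with zinc, where it read 0.74 and 0.30, against 0.12 and −0.13 without. Both arrays labelled with zinc lay above both labelled without. The means were 0.52 ± 0.31 and −0.01 ± 0.18 (limma adjusted p = 0.554 and 0.997). ECM4 read −0.59 and −0.27 without zinc, both below 0, with a mean of −0.43 ± 0.22 (adjusted p = 0.236, 166th lowest of 4722), and with zinc its single value was −0.00. ECM4 passed without zinc only with quantile normalization among the alternatives run (adjusted p = 0.0458).

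**Figure D3:**
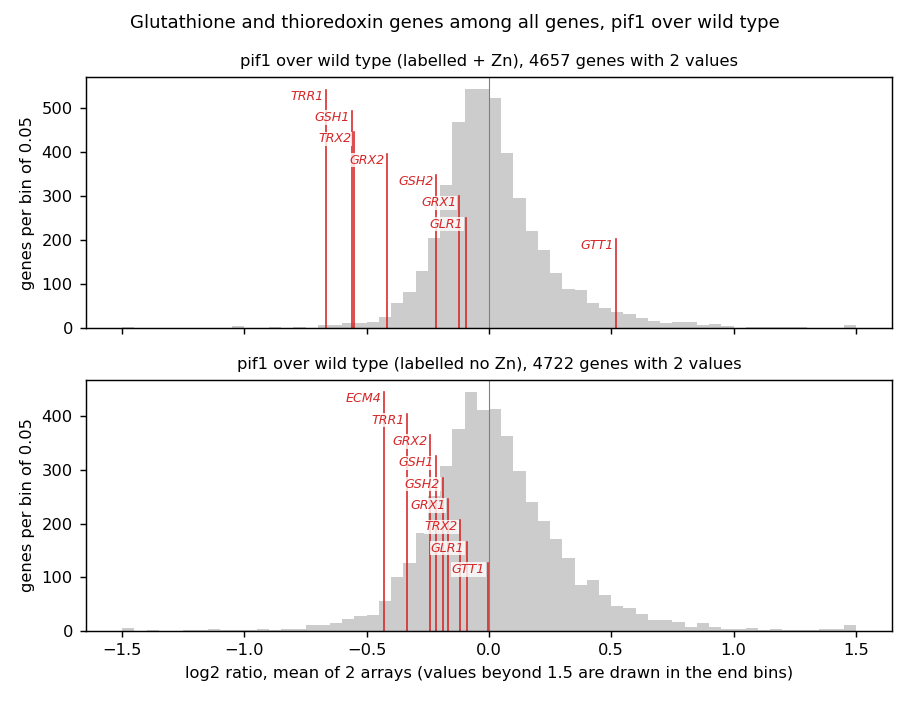
Number of genes (vertical axis) by mean log2 ratio of pif1 over wild type (horizontal axis, bins of 0.05), above for arrays labelled with zinc and below for arrays labelled without; red lines mark the named genes. With zinc TRR1, GSH1, TRX2 and GRX2 lie between −0.67 and −0.42 and GTT1 at 0.52; without zinc all 9 lie between −0.43 and −0.01.

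Whether pif1 changed the zinc response can be asked in a pair of ways. The zinc arrays give the response in pif1 minus that in wild type, and the mutant arrays give pif1 over wild type with zinc minus that without. By the labels the cells of the mutant arrays without zinc lacked the added hour. The estimate from the mutant arrays can therefore also hold an effect of that hour, as can the mean and the distance of both estimates, and this was not tested. With both estimates combined as their mean, 0 of 8 genes passed and 0 did at an unadjusted p under 0.05. The background was 0% of 3857 genes called by limma, and 1.81% higher and 4.15% lower unadjusted. Estimates of opposite sign cancel in this mean, which was 0.03 for TRX2. The absence of a call there does not show that the strains responded alike. From the zinc arrays alone 0 of 9 passed, at a background of 0.269% of 4086 genes, and from the mutant arrays alone 0 of 8, at 0.134% of 4468 genes.

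ECM4 had the largest difference of the 9 genes on the zinc arrays, −1.02 (95% interval −1.52 to −0.52), which was the 50th lowest of 4086 genes and did not pass (limma adjusted p = 0.0941). Its missing array left it without a second tested estimate. In pif1 over wild type its single value with zinc, −0.00, lay above both values without, −0.59 and −0.27. On that single array the direction was thus opposite to that of the zinc arrays. For TRX2 the zinc arrays gave 0.50 (−0.12 to 1.13) and the mutant arrays −0.44 (−1.06 to 0.18). TRR1 gave 0.45 (−0.24 to 1.15) and −0.33 (−1.03 to 0.37), and GSH1 0.30 (−0.22 to 0.83) and −0.34 (−0.87 to 0.18). For these 3 genes the estimate was above 0 from the zinc arrays and below 0 from the mutant arrays, with every interval including 0. The fit behind these intervals has no term for the array number, although same-numbered arrays deviated together (r between 0.438 and 0.552). The intervals therefore do not use that pairing, and an interval that includes 0 does not show that the estimates agree.

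GRX2 also changed sign, at 0.32 (−0.25 to 0.90) and −0.17 (−0.75 to 0.40). GTT1 gave 0.01 (−0.76 to 0.78) and 0.53 (−0.24 to 1.29), without a change of sign. In all, the estimates had opposite signs for 6 of 8 genes (75%), and for 2155 of all 3857 genes (55.9%). The distance between them was 0.94 for TRX2 (limma adjusted p = 0.519). No gene of the 8 passed that test, at a background of 0.493% of 3857 genes, and TRX2 was the only one of the 8 with an unadjusted p under 0.05.

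**Figure D4:**
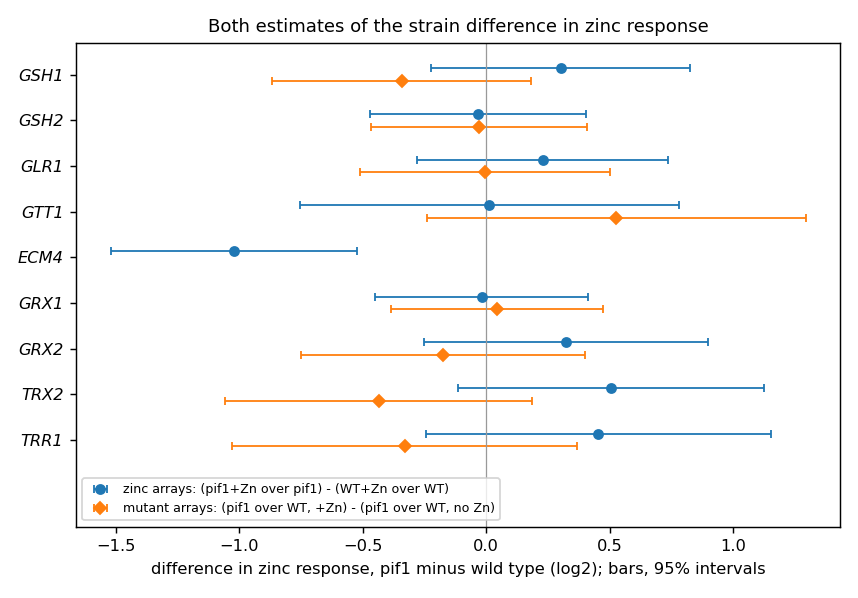
Difference in zinc response between pif1 and wild type (log2, horizontal axis) from the zinc arrays and from the mutant arrays. Bars are 95% limma intervals from the fit without a term for the array number. TRX2, TRR1 and GSH1 lie right of 0 by the zinc arrays (0.50, 0.45 and 0.30) and left of it by the mutant arrays (−0.44, −0.33 and −0.34).

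Around the 10 genes, 53 further genes of the same pathways were listed in 8 roles, all with an ID in the table. With zinc 20 of 45 tested rose and 3 fell in pif1, and 21 of 47 rose and 4 fell in wild type, with medians of 0.43 and 0.47. Over all genes tested 15.5% rose and 15.8% fell in pif1, and 14.7% rose and 15.6% fell in wild type. The list was compiled with earlier results known and was not tested as a set.

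The thioredoxin-dependent and glutathione-dependent peroxidases and reductases had 8 of 9 genes tested higher in pif1 and 5 of 9 in wild type, and none lower. The genes tested were not the same: GPX1 was tested only in wild type and MXR1 only in pif1. Named after their values were seen, TSA1 and AHP1 passed only in pif1, with wide spreads (1.47 ± 1.08 and 1.13 ± 0.79), against 0.17 and 0.56 in wild type. PRX1, the mitochondrial peroxiredoxin, rose by 1.83 ± 0.17 in pif1 and 1.70 ± 0.08 in wild type (limma adjusted p = 6.1e-05 in both). TSA2, a cytosolic peroxiredoxin, rose by 1.28 ± 0.05 and 2.05 ± 0.30. HYR1, the peroxidase that senses hydrogen peroxide for Yap1, rose by 0.89 ± 0.34 and 0.55 ± 0.24, and MXR2, the mitochondrial methionine sulphoxide reductase, by 0.80 ± 0.06 and 0.63 ± 0.20. These 4 rose in both strains.

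GPX2, a phospholipid hydroperoxide peroxidase, had the largest conflict between arrays of the 42 listed genes tested for it. It read 2.32 and 2.89 with zinc in pif1 and −0.15 and −0.13 with zinc in wild type. On the arrays of pif1 over wild type it read −2.57 and −2.56 with zinc and −0.12 and 0.22 without. Of the zinc comparisons, GPX2 was thus higher after zinc only in pif1. On the mutant arrays labelled with zinc it was lower in pif1 than in wild type. Its rise with zinc in pif1 was 2.61 ± 0.41 (limma adjusted p = 3.1e-05). Its ratio of pif1 over wild type on the arrays labelled with zinc was −2.56 ± 0.01 (adjusted p = 0.000552). The difference in response was 2.74 from the zinc arrays (adjusted p = 0.00404) and −2.61 from the mutant arrays (adjusted p = 0.00805), and the distance between these estimates was 5.36 (adjusted p = 0.000314). The cause was not tested.

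In the thioredoxin system the mitochondrial members TRX3 and TRR2, thioredoxin and its reductase, rose in both strains. TRX3 had a mean of 0.47 ± 0.07 in pif1 and 0.61 ± 0.29 in wild type, and TRR2 of 0.88 ± 0.08 and 0.70 ± 0.18 (limma adjusted p between 0.00185 and 0.0431). Among 6 other glutaredoxins tested, 2 rose in both strains: GRX6, with 0.63 ± 0.53 and 0.84 ± 0.01, and GRX7, with 0.90 ± 0.20 and 1.00 ± 0.05. Both are monothiol enzymes of the secretory pathway. GRX4, a cytosolic monothiol glutaredoxin of iron regulation, fell in wild type (−0.99 ± 0.08, adjusted p = 0.00347) and was named after its values were seen.

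Of the 9 genes tested under NADPH supply, a role that here also holds TKL1 and TAL1 of the non-oxidative branch, 5 rose and 1 fell in each strain. SOL4, a 6-phosphogluconolactonase of the pentose phosphate pathway, rose by 2.11 ± 0.07 in pif1 and 2.37 ± 0.28 in wild type, SOL3 by 0.43 ± 0.07 and 0.47 ± 0.11, and GND2, 6-phosphogluconate dehydrogenase, by 0.50 ± 0.32 and 0.80 ± 0.13. TKL1, the transketolase of the non-oxidative branch, fell by 1.33 ± 0.48 and 0.65 ± 0.07 on the log2 scale. TAL1, the transaldolase of the same branch, was named after its values were seen: it rose by 0.76 ± 0.76 in pif1 (limma adjusted p = 0.0345) and read 0.65 ± 0.15 in wild type (adjusted p = 0.0594). Named likewise, ZWF1 and ALD6 passed only in wild type, at 1.03 ± 0.19 and 1.01 ± 0.22, against 0.44 ± 0.52 and 0.24 ± 0.63 in pif1. POS5 passed only in pif1, at 0.68 ± 0.13, against 0.25 ± 0.03 in wild type. The difference between strains on the zinc arrays passed for none of them (limma adjusted p = 0.431 for ZWF1, 0.405 for ALD6 and 0.431 for POS5).

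Among genes of glutathione breakdown and transport 1 of 8 rose and 1 fell in pif1, and 2 of 9 rose and 1 fell in wild type, shares near those over all genes. GCG1, a cytosolic gamma-glutamylcyclotransferase that degrades glutathione, rose by 0.78 ± 0.20 and 0.75 ± 0.06. OPT1, the high-affinity glutathione importer, fell by 0.75 ± 0.56 and 0.87 ± 0.02. Of 4 glyoxalase and formaldehyde genes 2 rose in pif1 and 3 in wild type, among them GLO1, glyoxalase I, by 0.57 ± 0.59 and 0.63 ± 0.08, and SFA1, the glutathione-dependent formaldehyde dehydrogenase, by 0.51 ± 0.21 and 0.53 ± 0.15.

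Of 5 regulators, 0 rose and 1 fell in pif1, and 1 rose and 1 fell in wild type, too few to set against the shares over all genes. SKN7, the response regulator that works with Yap1 at TRX2 and other promoters, fell by 1.10 ± 0.05 in pif1 and 0.59 ± 0.24 in wild type (limma adjusted p = 0.000641 and 0.0123). In the direct ratio of pif1 over wild type, 46 listed genes were tested on the arrays labelled with zinc. Of these 0 passed as higher and 1, GPX2, as lower. On the arrays labelled without zinc 0 of 47 passed. Over all genes 0.988% were called higher and 0.193% lower with zinc, and 1.44% and 0.593% without. At an unadjusted p under 0.05, 0 listed genes were higher and 4 lower with zinc, where 7.17% and 2.64% of all genes were. Without zinc 2 were higher and 5 lower, where 9.15% and 5.48% were.

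**Figure D5:**
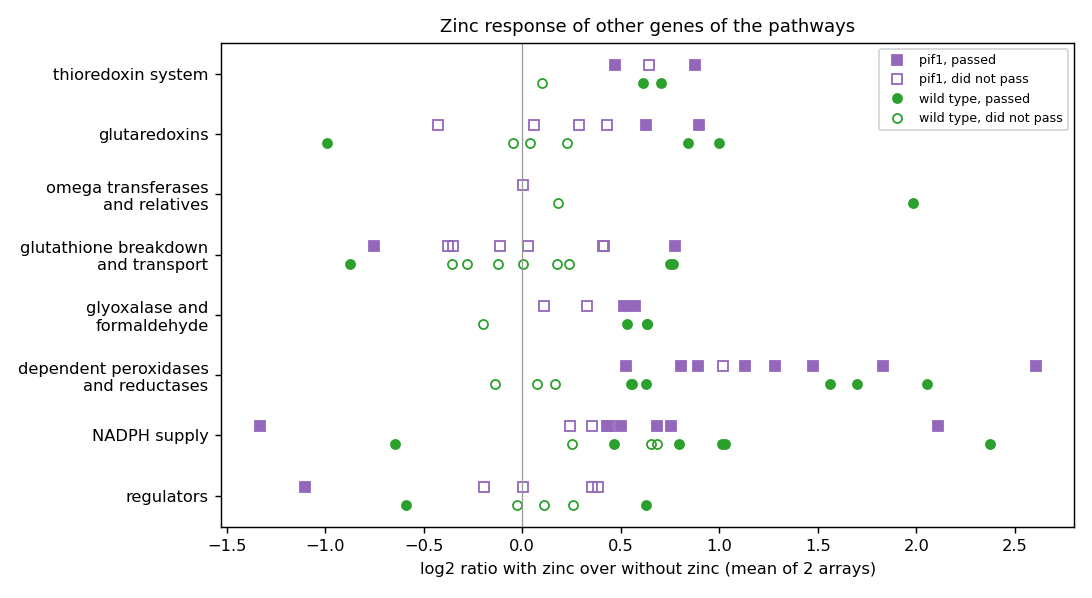
Mean log2 ratio of zinc-treated over untreated cells (horizontal axis) of the listed pathway genes by role, with squares for pif1 and circles for wild type; filled symbols passed at an adjusted p under 0.05. The peroxidases and reductases hold 8 of 9 filled squares right of 0, and SKN7 and TKL1 are the filled squares farthest left, at −1.10 and −1.33.

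Across the 8 arrays the 8 genes with complete values were compared with each other. The RNAs of these arrays were of 4 kinds by strain and zinc, and preparations may have been shared. The correlation between pairs of these genes ran from 0.446 (GLR1 with GTT1) to 0.987 (GRX2 with TRX2), with a median of 0.837 over 28 pairs. The mean of the 8 genes lay between 0.72 and 1.11 on the zinc arrays and between −0.335 and −0.122 on the mutant arrays. Any genes that share this contrast correlate highly, and the correlation over pairs of all genes was not computed. The genes most like the mean of the 8, among 3807 candidates, were YSA1 (r = 0.994), VPS68 (0.993), YPR1 (0.992), YNL208W (0.990) and BNA1 (0.987). YPR1, an aldo-keto reductase that uses NADPH, read 1.59 and 1.24 with zinc in pif1 and 1.28 and 1.26 in wild type, against −0.49 and −0.45 in pif1 over wild type with zinc and −0.13 and −0.44 without. YSA1, an ADP-ribose pyrophosphatase, read 1.02 and 0.93 with zinc in pif1 and 0.87 and 0.66 in wild type.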

How the data were processed

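Expression was measured on 8 spotted 2-colour arrays, 2 per comparison with the dyes exchanged, from labelled cDNA of 8 ug total RNA primed with oligo(dT), per the labels' protocols. The values are log2 ratios deposited by the authors as 1 table. The authors had dropped spots whose diameter was less than 120 um or whose signal in Cy3 and Cy5 did not reach 100 units, per the labels. Scanner, background correction, normalization and log base are not given in the sources used here. Base 2 was taken from the size of the values. The direction, first-named over second-named RNA, was taken from PIF1 for the mutant comparisons. On the zinc arrays PIF1 held no value, and the direction was assumed from the order of the names. The positive correlation of exchanged arrays shows only that both arrays of a pair run the same way. The first-named RNA carried Cy5 on array 1 of the zinc comparisons and Cy3 on array 1 of the mutant comparisons. The authors' centring is unknown; column medians lay between −0.064 and 0.0745.

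Here 2 values beyond 16 in size, both PIF1, were taken as placeholders and set missing, and each array was centred on its median. Symbols came from RefSeq's gene table by locus tag and matched 5639 IDs. Comparisons were fitted with limma 3.58.1 in R 4.3.3, with 1 coefficient per comparison, spread pooled over the 8 arrays and Benjamini-Hochberg adjustment over all genes with 2 values, at 0.05. The code was tested on simulated data. The number of arrays limits the precision. The 10 genes and the pathway list were chosen with earlier results of these data known. Pathway genes were named where they passed in the same direction in both zinc comparisons, or in a mutant comparison. Alternatives were scaling, quantile normalization, no centring, a dye term, the replicate number as a block, separate fits, robust eBayes, complete genes and single arrays left out. No sequence is shown.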

Additional observations from a re-analysis of the deposited data

How the results depend on the processing

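With 2 arrays per comparison, the spread is borrowed from all 8, and an array left alone is assumed to vary like the others. For zinc in pif1 the count of genes that rose lay between 5 and 8 over the alternatives, and for zinc in wild type between 4 and 6, except that leaving out single arrays gave 2 to 4. Without array 2 of zinc in pif1, where genes with 1 value are tested, GTT2 passed as lower on its single value (−1.53, limma adjusted p = 0.00384), with its spread taken wholly from other genes. For pif1 over wild type with zinc 3 genes (GSH1, TRX2 and TRR1) were lower with arrays scaled to 1 spread, with quantile normalization and with the replicate block (adjusted p = 0.0428, 0.0337 and 0.0430). Without zinc 1 gene (ECM4) was lower with quantile normalization. The replicate numbers are not stated to mark a shared source: same-numbered arrays deviated together (r between 0.438 and 0.552 over 3857 genes), and the block gave 8 genes higher for zinc in pif1, adding GLR1 (adjusted p = 0.0146), and 6 in wild type, adding GSH1 (0.0172). Leaving out single arrays also turned small values: GSH2 lay between −0.0045 and 0.15 with zinc in pif1 and between −0.065 and 0.28 in wild type, GLR1 between −0.29 and 0.10 in pif1 over wild type with zinc, and without zinc GTT1 between −0.13 and 0.12 and TRX2 between −0.35 and 0.11. The combined difference in zinc response, in which estimates of opposite sign cancel, was small for these genes and its sign was not stable. Over single arrays left out it lay between −0.15 and 0.11 for GSH1, −0.12 and 0.056 for GSH2, −0.046 and 0.072 for GRX1, −0.087 and 0.23 for GRX2, −0.10 and 0.17 for TRX2 and −0.17 and 0.29 for TRR1. With arrays scaled to 1 spread it was −0.061 for GRX1, −0.10 for GRX2, −0.24 for TRX2 and −0.15 for TRR1. Quantile normalization gave −0.069 for GRX2, −0.17 for TRX2 and −0.13 for TRR1, and values without centring 0.012 for GSH1 and 0.0022 for GSH2. The zinc arrays only, an alternative chosen after seeing the data, gave 0.30 for GSH1 and −0.019 for GRX1, and the mutant arrays only, likewise, −0.0045 for GLR1, −0.17 for GRX2, −0.44 for TRX2 and −0.33 for TRR1. The distance between the estimates turned for GSH2 (0.068 without centring, 0.051 scaled, 0.065 with quantile normalization, −0.18 to 0.17 over single arrays left out) and GRX1 (0.0095 without centring, 0.053 with quantile normalization, −0.18 to 0.055 over single arrays left out). The cause of these changes was not tested.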

Other observations

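In each of the 4 comparisons GTT1, GRX2, TRX2 and TRR1 read higher on array 1 than on array 2, as did 25.1% of the 3857 genes with complete values. GSH1 and GLR1 read higher on array 2 in each, as did 16.6%. For GRX2 in wild type the centred values were 0.98 on both arrays, and the deposited values, 0.912 and 0.939, had the other order. Per the labels, the RNA named first carried Cy5 on array 1 of the zinc comparisons and Cy3 on array 1 of the mutant comparisons, and whether the dye or another property of the arrays set this order was not tested.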
